A study of Mus musculus with 12 samples.

Results

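The L1 family, the contactins and the NCAMs are cell adhesion proteins of the immunoglobulin superfamily that sit on growing axons, and 10 of their genes were examined here in spiral ganglion neurons. The set was fixed by gene symbol: L1cam, Chl1, Nrcam and Nfasc of the L1 family, Cntn1, Cntn2, Cntn4 and Cntn5 of the contactins, and Ncam1 and Ncam2. All 10 were found among the 25674 genes of the count table, and all 10 passed the filter on low counts that left 14813 genes for testing.

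Spiral ganglion neurons are the sensory neurons that link the hair cells of the cochlea with the brainstem. The samples were neurons sorted for the red reporter tdTomato from E14.5 embryos, with 100 cells in each library and both inner ears of 1 embryo as the stated source. The 6 control libraries came from Neurod1Cre; Rosa26tdTOM embryos. The 6 libraries labelled ISL1CKO came from Neurod1Cre;Isl1loxP/loxP;Rosa26tdTOM embryos, in which Cre under the Neurod1 gene's control acts on floxed alleles of Isl1, a LIM homeodomain transcription factor of these neurons. Both groups therefore carried the same Cre transgene and the same reporter, on a mixed C57BL/6/sv129 background and in embryos of either sex from 4 litters; the litter of each library is not given in the sources used here. The labels number the samples as technical replicates while the design text calls them biological, so p-values measure the spread between these libraries.

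Proteins of these 3 subfamilies bind one another and themselves across the space between cells, and through this they guide axons, hold them in bundles and place them against glia. L1-type proteins span the membrane and attach inside the cell to ankyrin and thereby to the spectrin and actin skeleton. Contactins have no cytoplasmic part and are held by a lipid anchor, so they act together with partners such as the CASPR proteins and receptor tyrosine phosphatases. NCAM1 exists in lipid-anchored and membrane-spanning forms and is the main carrier of polysialic acid, a long sugar polymer that weakens adhesion and is added by the enzymes encoded by St8sia2 and St8sia4. Gene-level counts do not separate such forms.

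Libraries held 11895603 to 13857480 counts. The gene-level count of the targeted gene did not separate the groups: Isl1 ranged from 1050.5 to 1589 CPM (a gene's count relative to its library's TMM-scaled total) in the libraries labelled ISL1CKO and from 1171 to 1777 CPM in controls (edgeR log2 fold change -0.15, adjusted p = 0.460). The genotype therefore rests on the labels, and directions below are those of the libraries so labelled. The neuronal markers Tubb3, Snap25 and Elavl4 were present in all 12 libraries, at 472 CPM or more. The summed level of 10 spiral ganglion neuron markers was nevertheless 9449 to 12095 CPM in the libraries labelled ISL1CKO and 13388 to 15475 CPM in controls, with 2 markers higher and 5 lower in edgeR's test. Neurod1 and Rbfox3 were higher, at 0.88 and 0.54 in log2 terms. Gata3, Nefm, Nefl, Shox2 and Elavl4 were lower, at -2.71, -1.92, -1.38, -0.55 and -0.49. Mitochondrial genes took 0.845% to 1.02% of counts in the libraries labelled ISL1CKO and 1.05% to 1.65% in controls. ISL1CKO 2, 3 and 5 held transcripts of both sexes, with Xist at 62.9 to 132 CPM beside a mean of 35.7 to 87.3 CPM for 4 Y-linked genes, so results are also given without them. Transcripts of both sexes do not match a source of 1 embryo per library, and how they came together was not tested. In bulk libraries, fewer cells of a type and less RNA per cell cannot be told apart.

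Of the 10 genes, 3 changed and 7 did not pass the test. Ncam1 and Ncam2 were higher and Nrcam was lower in the libraries labelled ISL1CKO, and these 3 were also the genes whose groups did not overlap. By the same edgeR criterion (quasi-likelihood test, Benjamini-Hochberg adjusted p under 0.05), 10.2% of all genes tested were called, 5.01% higher and 5.19% lower. Groups did not overlap for 6.78% of all genes, 3.13% higher and 3.65% lower. The median log2 fold change over the 10 genes was -0.16, beside 0.0045 over all genes tested, and the median of absolute values was 0.52 beside 0.27. The same 3 genes were called in each of the 22 alternative fits, which included those without 1 library each and the one without ISL1CKO 2, 3 and 5.

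The reference promoters of Ncam2, which rose, and Nrcam, which fell, are shown because these genes moved in opposite directions. They are RefSeq windows of 300 bases on GRCm38.p6, from 250 bases before to 50 after the annotated start, on the plus strand at chr16:81200447-81200746 and chr12:44328635-44328934, with each CpG in capitals.
Ncam2: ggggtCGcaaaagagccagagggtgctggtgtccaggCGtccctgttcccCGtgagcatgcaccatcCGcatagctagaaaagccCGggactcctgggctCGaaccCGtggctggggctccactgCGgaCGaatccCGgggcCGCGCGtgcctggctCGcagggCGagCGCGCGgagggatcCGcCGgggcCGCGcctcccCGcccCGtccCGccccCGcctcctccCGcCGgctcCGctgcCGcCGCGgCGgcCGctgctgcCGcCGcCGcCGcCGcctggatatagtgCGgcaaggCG
Nrcam: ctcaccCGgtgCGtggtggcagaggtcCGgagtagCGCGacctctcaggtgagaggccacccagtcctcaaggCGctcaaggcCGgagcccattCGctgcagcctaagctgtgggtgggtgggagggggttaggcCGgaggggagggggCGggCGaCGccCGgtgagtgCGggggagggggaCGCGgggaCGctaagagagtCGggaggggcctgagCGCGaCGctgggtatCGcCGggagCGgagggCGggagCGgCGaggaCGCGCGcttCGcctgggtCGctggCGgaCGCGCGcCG
Both windows were rich in CpG, with 41 in Ncam2 and 37 in Nrcam against a median of 7 over the 32851 promoters of the table. Their GC content was 75.7% and 74.0%, against a median of 52.7%. The core letters of homeodomain sites, TAAT, occurred on neither strand of either window. They were in 8 of the 15 windows listed for 9 of the 10 genes and in 58.0% of all promoters. The longer string CTAATG, searched on both strands and containing the core, was in 7.36% of all promoters and in 0 of the 15 windows. The table lists no more than these windows, and a string that is missing from 300 bases says nothing about sites elsewhere.

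Among the NCAMs, Ncam1 was the most abundant of the 10 genes and rose by a modest factor. Ncam1 (ENSMUSG00000039542) lies on chromosome 9 at 49502136 to 49798925, minus strand, in the GENCODE M21 annotation of GRCm38. Its level was 1332, 1379 and 1722 CPM (lowest, median and highest library) in controls and 1755, 2009 and 2268 CPM in the libraries labelled ISL1CKO. Every library labelled ISL1CKO lay above every control, although ISL1CKO 3 at 1755 CPM was close to control 2 at 1722 CPM. The control mean of 1463 ± 167 CPM became 2018 ± 202 CPM (SD, n = 6), a 1.38-fold rise. EdgeR estimated a log2 fold change of 0.46 ± 0.085 (SE; 95% interval 0.28 to 0.65; adjusted p = 0.00217), and 0.49 without ISL1CKO 2, 3 and 5 (adjusted p = 0.0140). Its exons share 417 bases with the antisense gene Gm11149 on the opposite strand, which held 494 counts over all 12 libraries.

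Ncam2, which encodes a relative of NCAM1 known from olfactory axons, rose more. Ncam2 (ENSMUSG00000022762) lies on chromosome 16 at 81200697 to 81626828, plus strand. Control libraries held 28.7, 51.5 and 73.3 CPM, and libraries labelled ISL1CKO 85.1, 167 and 203 CPM. The lowest of the latter, ISL1CKO 1, was just above the highest control, control 5, and the other 5 lay between 114 and 203 CPM. Ncam2 averaged 51.4 ± 14.8 CPM in controls against 154 ± 45.3 CPM (SD, n = 6), a 2.99-fold rise. EdgeR's log2 estimate was 1.58 ± 0.23 (SE; 95% interval 1.07 to 2.09; adjusted p = 0.000351), and 5.24% of all genes tested had a larger absolute change. It was 1.53 without ISL1CKO 2, 3 and 5 (edgeR adjusted p = 0.00867).

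**Figure D1:**
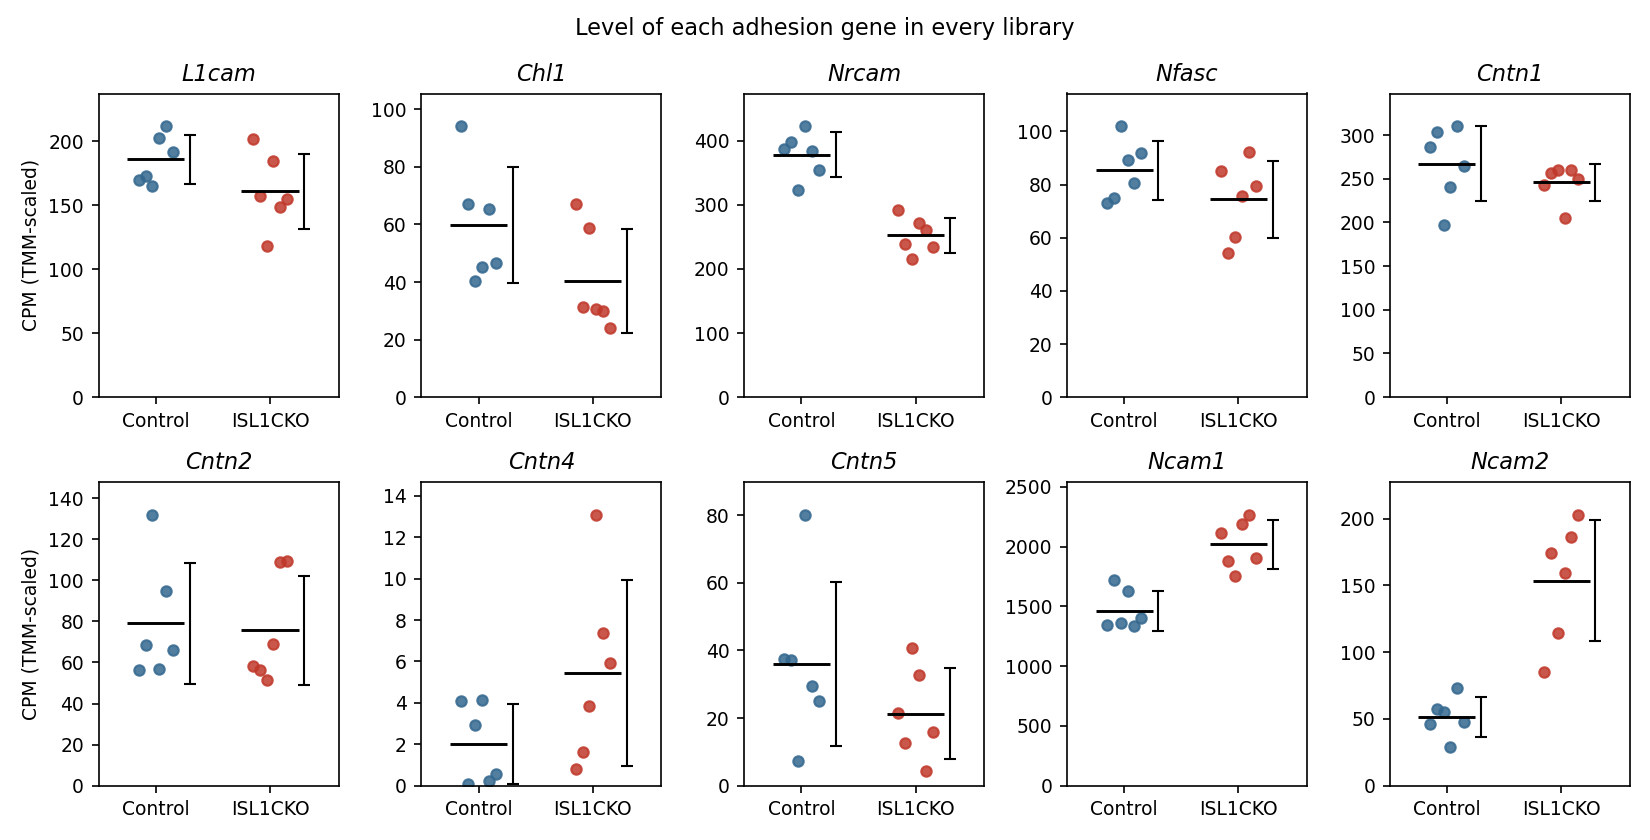
TMM-scaled level (CPM) of the 10 genes in 6 control (blue) and 6 libraries labelled ISL1CKO (red); each point is a library, the line is the mean and the bar at its side the SD. Ncam1 and Ncam2 points of the red group all lie above the blue ones, Nrcam points all lie below, and the groups overlap in the other 7 panels.

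In the L1 family, Nrcam was lower and the other 3 genes did not pass the test. NRCAM binds contactins and neurofascin and serves at the nodes of myelinated axons later in life. Nrcam (ENSMUSG00000020598) lies on chromosome 12 at 44328885 to 44601964, plus strand. Its level was 323, 386 and 423 CPM in controls and 216, 249.7 and 292 CPM in the libraries labelled ISL1CKO. All 6 of the latter lay under the lowest control, control 3, and the spread within each group was narrow, with a coefficient of variation of 11.1% in the libraries labelled ISL1CKO and 9.26% in controls. Nrcam averaged 378 ± 35.0 CPM in controls against 252 ± 28.0 CPM (SD, n = 6), or 0.67 of the control level. EdgeR's log2 estimate was -0.59 ± 0.087 (SE; 95% interval -0.78 to -0.39; adjusted p = 0.000447), and -0.51 without ISL1CKO 2, 3 and 5 (adjusted p = 0.0177).

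L1cam, the founding member of the family and an X-linked gene (ENSMUSG00000031391, chromosome X, 73853778 to 73896105), was at 165, 182 and 212 CPM in controls. In the libraries labelled ISL1CKO it was at 118, 156 and 202 CPM. In this group 4 of 6 libraries lay under every control, while ISL1CKO 1 and 4 lay within the control range. The log2 fold change was -0.21 with a 95% interval of -0.47 to 0.056 (edgeR adjusted p = 0.318). It was -0.045 without ISL1CKO 2, 3 and 5 (edgeR adjusted p = 0.901). L1cam exons share 100 bases with Arhgap4 on the same strand, which held 110 counts in all.

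Chl1, the close homolog of L1 (ENSMUSG00000030077, chromosome 6, 103510586 to 103750211), was at 40.5, 56.0 and 94.2 CPM in controls. It was at 24.0, 30.9 and 67.2 CPM in the libraries labelled ISL1CKO. Again 4 of 6 lay under every control, but ISL1CKO 1 and 3, at 67.2 and 58.8 CPM, were above the control median. Its estimate of -0.57 on the log2 scale was about as large as that of Nrcam, but its SE of 0.27 was wider and its 95% interval ran from -1.18 to 0.039 (edgeR adjusted p = 0.226).

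Nfasc encodes neurofascin, which organises the axon initial segment and the node (ENSMUSG00000026442, chromosome 1, 132564690 to 132741797). It was at 73.1, 84.9 and 102 CPM in controls and 54.1, 77.4 and 92.2 CPM in the libraries labelled ISL1CKO. Only ISL1CKO 2 and 3 fell under the control range. Its log2 fold change was -0.20 with a 95% interval of -0.50 to 0.11 (edgeR adjusted p = 0.423). It was -0.13 without ISL1CKO 2 and -0.10 without ISL1CKO 2, 3 and 5 (edgeR adjusted p = 0.627 and 0.776). The L1 family thus held values of one sign, with 1 of 4 genes past the threshold.

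None of the 4 contactin genes passed edgeR's test at an adjusted p of 0.05, and none had an unadjusted p under 0.05. Cntn1 encodes contactin 1, a partner of CASPR and of PTPRZ1 (ENSMUSG00000055022, chromosome 15, 92051165 to 92341967). Cntn1 had a coefficient of variation of 16.0% in controls and 8.48% in the libraries labelled ISL1CKO. It was at 197, 275 and 310.4 CPM in controls and 205, 253 and 259.9 CPM in the libraries labelled ISL1CKO, with the latter range inside the former. Its log2 fold change of -0.12 had a 95% interval of -0.36 to 0.11 (edgeR adjusted p = 0.543). Cntn2, which encodes TAG-1 of early growing axons (ENSMUSG00000053024, chromosome 1, 132509427 to 132543256), was at 56.4, 67.3 and 132 CPM in controls. It was at 51.6, 63.8 and 109.5 CPM in the libraries labelled ISL1CKO. The log2 fold change was -0.063 with a 95% interval of -0.61 to 0.49 (edgeR adjusted p = 0.914), and its sign turned to 0.14 without control 3, the control with the highest level (edgeR adjusted p = 0.789).

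Cntn4 and Cntn5 varied most between libraries. Cntn5 (ENSMUSG00000039488, chromosome 9, 9660891 to 10904775) was at 7.26, 33.4 and 80.2 CPM in controls and 4.38, 18.8 and 40.7 CPM in the libraries labelled ISL1CKO. The coefficient of variation was 67.3% in controls and 62.7% in the libraries labelled ISL1CKO. Its log2 fold change of -0.76 had a 95% interval of -1.89 to 0.37 (edgeR adjusted p = 0.404), and without control 4, the highest library, it was -0.36 (edgeR adjusted p = 0.724). Cntn5 exons share 290 bases with Gm32710 on the opposite strand. Cntn4 (ENSMUSG00000064293, chromosome 6, 105677660 to 106699310) was close to the limit of detection. It held 1 to 56 counts in the control libraries and 10 to 176 counts in the libraries labelled ISL1CKO, of which ISL1CKO 4 held the most. In CPM this was 0.0740, 1.75 and 4.15 against 0.792, 4.89 and 13.1. The interval was wide, with a log2 fold change of 1.44 and bounds of -0.41 and 3.29 (edgeR adjusted p = 0.324), and a difference was not detectable at this depth and spread. Without ISL1CKO 2, 3 and 5, Chl1, Cntn1, Cntn2, Cntn4 and Cntn5 were at -0.57, -0.21, -0.0044, 1.72 and -0.64 on the log2 scale, with edgeR adjusted p from 0.455 to 0.997.

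**Figure D2:**
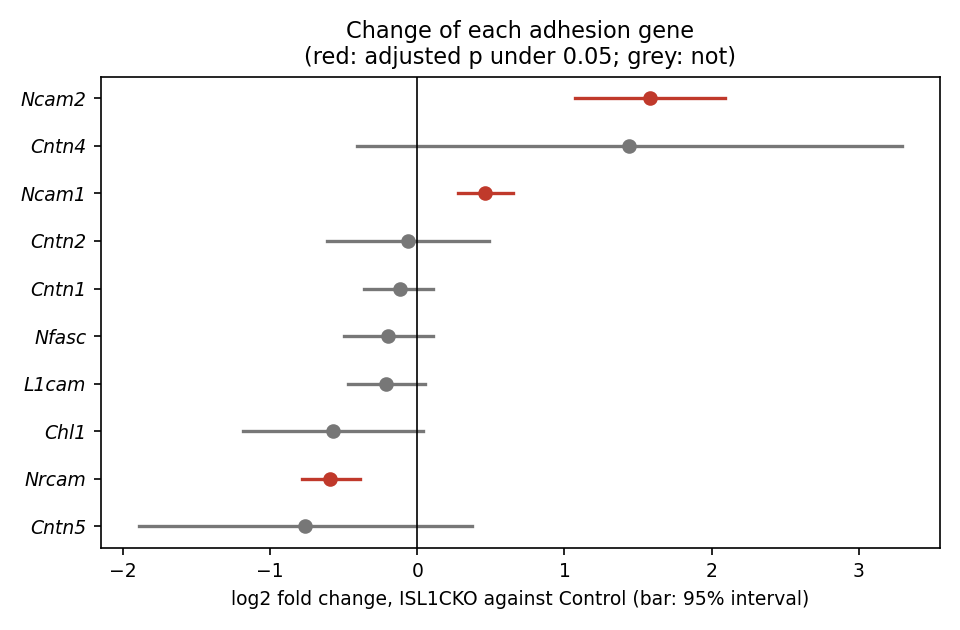
Log2 fold change of each gene in the libraries labelled ISL1CKO against controls (n = 6 each), with bars for the 95% interval; red marks an edgeR adjusted p under 0.05. The intervals of Ncam1 (0.28 to 0.65), Ncam2 (1.07 to 2.09) and Nrcam (-0.78 to -0.39) leave out 0, and the widest is that of Cntn4.

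Levels were next put on a per-length scale, as RPKM (CPM per kilobase of all annotated exons), so that genes could be set against each other. Ncam1 led in both groups, at 169 ± 19.3 RPKM in controls and 233 ± 23.4 RPKM in the libraries labelled ISL1CKO (SD, n = 6). In controls only 1.63% of 14793 genes ranked by RPKM were higher. Cntn1 at 28.3 ± 4.53, Nrcam at 28.3 ± 2.62 and L1cam at 25.3 ± 2.63 RPKM followed in controls, with overlapping ranges. Cntn2, Cntn5, Nfasc, Chl1 and Ncam2 then lay between 8.50 and 4.54 RPKM, each overlapping the next, and Cntn4 was lowest at 0.236 ± 0.227 RPKM. The order of the libraries labelled ISL1CKO differed mainly through Ncam2, which stood at place 9 of 10 in controls and at place 5 there, at 13.6 ± 4.00 RPKM. Its range still overlapped that of Nrcam at place 4, at 18.9 ± 2.10 RPKM, and that of Cntn2 at place 6.

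The summed level of the 10 genes was 283 ± 24.0 RPKM in controls and 335 ± 27.8 RPKM in the libraries labelled ISL1CKO (SD, n = 6). Ncam1 made up 55.2% to 63.0% of this sum in the control libraries and 67.3% to 71.1% in the others. Nrcam made up 9.43% to 10.8% in controls and 5.30% to 6.27%. These shares depend on one another, since they add up to the whole, and are given as a description.

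**Figure D3:**
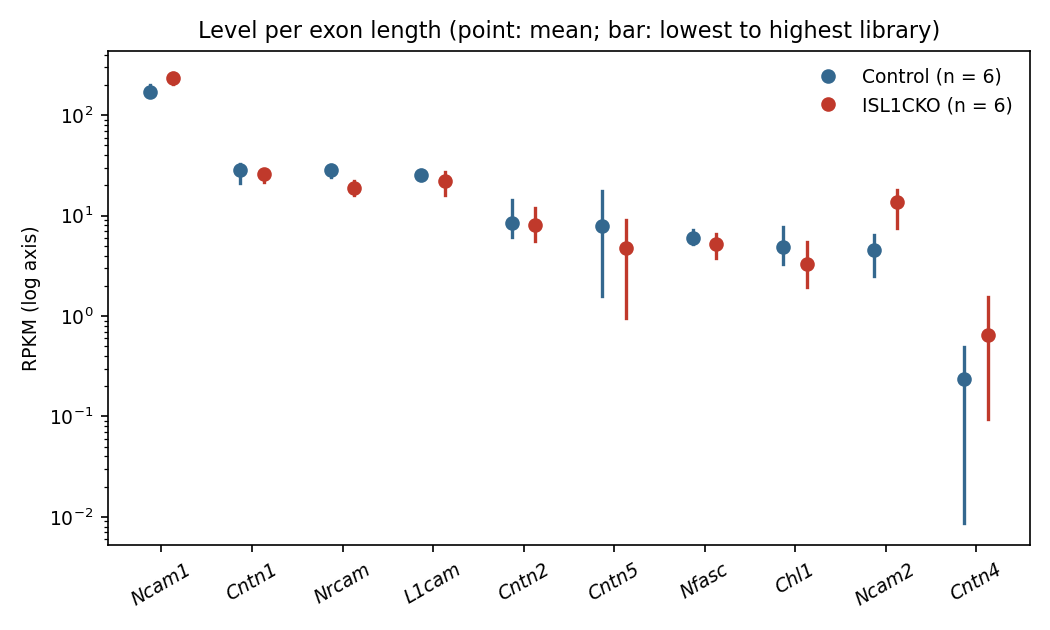
Level per exon length (RPKM, log axis) of the 10 genes, ordered by their control mean; points are means of 6 libraries and bars run from the lowest to the highest library. Ncam1 stands apart from the rest in both groups, and Ncam2 shifts from 4.54 to 13.6 RPKM.

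Plain ratios of related genes within a library do not depend on how libraries are scaled, and 5 pairs of the same subfamily were compared. The 0.5 CPM added to each gene for the tests brings in some dependence where a level is low, as for Cntn4. Ncam2 rose relative to Ncam1: its RPKM was 2.74 ± 0.926 per 100 RPKM of Ncam1 in controls and 5.86 ± 1.77 in the libraries labelled ISL1CKO (SD, n = 6). The ranges, 1.35 to 4.21 and 3.07 to 8.17, overlapped only through ISL1CKO 1. On the log2 scale, with 0.5 CPM added to each gene, the ratio differed by 1.10 (exact 2-sided permutation test, p = 0.00649, Benjamini-Hochberg adjusted p = 0.0325 over the 5 pairs). This call was narrow: it was lost in 9 of the 12 tests without 1 library (ISL1CKO 2, 3, 4, 5 or 6, or control 1, 2, 4 or 6), with differences of 0.91 to 1.27 over the 12 and a highest adjusted p of 0.0758 (exact permutation tests). Nfasc relative to Nrcam differed by 0.38, which did not pass (exact permutation p = 0.0433, adjusted p = 0.108). Without control 3 the difference was 0.47 (exact permutation test, adjusted p = 0.0271), and the other 14 of 15 alternative tests of this pair did not pass. Cntn5 relative to Cntn4 differed by -2.06 (exact permutation p = 0.0714, adjusted p = 0.119), and by -2.64 without control 3 (exact permutation test, adjusted p = 0.0325). The other 14 of 15 alternative tests of this pair did not pass. The size of this difference depends on the added constant, since Cntn4 went down to 0.0740 CPM in controls, under the 0.5 CPM added. With 1 CPM added the difference was -1.79 (exact permutation test, adjusted p = 0.112). For Chl1 over L1cam and Cntn2 over Cntn1 the differences were -0.39 and 0.047 (exact permutation p of 0.266 and 0.896). With 1 library left out they ran from -0.60 to -0.22 and from -0.067 to 0.29, so the sign of the latter was not stable, and neither passed in any of these exact permutation tests.

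Genes whose products act with these adhesion proteins, and relatives of these adhesion genes, were read from 5 lists. The list of further immunoglobulin superfamily adhesion genes was chosen by family and not as partners. It supplied 20 of the tested and 8 of the called genes. Of 71 genes, 61 were tested and 24 changed, 13 higher and 11 lower, or 39.3% of those tested beside 10.2% of all genes. The lists were chosen with earlier results of these data known, so this share only describes them. It is no result about partner genes in general. For the counts of each list below, the background is 5.01% of all genes called higher and 5.19% lower. The median log2 fold change over the 61 was 0.13, beside 0.0045 over all genes. Without ISL1CKO 2, 3 and 5, 20 were called.

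Of 10 enzymes that cut these proteins or modify their sugars, 2 were higher and 0 lower in edgeR's test, with a median log2 fold change of 0.31. St8sia4 (chromosome 1, 95587682 to 95667571), one of the polysialic acid synthases that act on NCAM1, averaged 18.3 ± 2.68 CPM in controls against 88.6 ± 24.7 CPM (SD, n = 6). The highest control was at 22.1 CPM and the lowest library labelled ISL1CKO at 64.8 CPM. EdgeR's log2 estimate was 2.28 ± 0.17 (SE; adjusted p = 8.68e-07). St8sia2, the other polysialic acid synthase, was more abundant in counts and did not pass, at 311 ± 54.3 and 375 ± 57.3 CPM (SD, n = 6; edgeR adjusted p = 0.219). Adam17, a protease that sheds L1 and other surface proteins, rose by 0.68 on the log2 scale (adjusted p = 0.0114 in edgeR), a call lost without ISL1CKO 2, 3 and 5, where the estimate was 0.69 (edgeR adjusted p = 0.0646). Adam10 and Bace1, proteases for which L1 and CHL1 are substrates, did not pass, with estimates of -0.055 and 0.13 on the log2 scale.

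Of 15 intracellular adaptors, 3 were higher and 3 lower, with a median log2 fold change of -0.09. Ezr and Msn, which encode the actin linkers ezrin and moesin, of a family that binds the tail of L1, both fell. Ezr (chromosome 17, 6738041 to 6782784) averaged 237 ± 52.6 CPM in controls against 39.5 ± 12.1 CPM (SD, n = 6), which edgeR put at -2.59 on the log2 scale (adjusted p = 1.45e-06). Msn averaged 171 ± 22.1 CPM against 66.4 ± 14.2 CPM (SD, n = 6), or -1.37 (adjusted p = 1.25e-05). Sdcbp, which encodes syntenin, a PDZ protein that binds neurofascin, averaged 157 ± 66.9 CPM in controls against 609 ± 75.6 CPM (SD, n = 6; edgeR adjusted p = 6.63e-05).

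The 3 ankyrin genes, whose products link membrane proteins such as the L1 family to spectrin, were all called, 2 higher and 1 lower. Ank2, which encodes ankyrin-B, averaged 562 ± 67.6 CPM in controls against 866 ± 85.2 CPM (SD, n = 6), a rise of 0.62 in log2 terms (edgeR, adjusted p = 0.000286). Ank3 encodes ankyrin-G of the axon initial segment and falls outside the rule for naming genes; it was chosen after its values were seen. Its mean was 297 ± 67.6 CPM in controls against 170.1 ± 11.3 CPM (SD, n = 6), a change of -0.80 in log2 terms (edgeR, adjusted p = 0.000485), with no overlap between 244 to 427 CPM in controls and 153 to 187 CPM. Ank1, likewise outside the rule and low in level, averaged 1.21 ± 0.715 CPM in controls against 4.17 ± 1.66 CPM (SD, n = 6; log2 estimate 1.78, edgeR adjusted p = 0.0341), and its exons overlap those of Gm15816, as those of Ank2 overlap Gm16958.

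Of 15 extracellular partners and co-receptors, 12 were tested, 5 were higher and 1 was lower, with a median log2 fold change of 0.36. Ptprz1 (chromosome 6, 22875502 to 23052916), a receptor phosphatase that binds contactin 1, averaged 19.6 ± 4.45 CPM in controls against 182 ± 45.7 CPM (SD, n = 6). Controls ranged from 14.8 to 25.2 CPM and libraries labelled ISL1CKO from 124 to 252 CPM. EdgeR's log2 estimate was 3.22 ± 0.19 (SE; adjusted p = 8.33e-08). App, whose product binds contactins, and Prnp, whose product binds NCAM1, rose by 1.30 and 1.13 in log2 terms (edgeR, adjusted p = 5.11e-06 and 5.21e-06). Vcan, which encodes the matrix proteoglycan versican, changed by -0.90 (edgeR, adjusted p = 0.000608).

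Of 9 contactin relatives and CASPR genes, only 4 passed the filter on low counts, with 1 higher and 1 lower. Cntnap2, which encodes CASPR2, a partner of contactin 2, averaged 27.6 ± 10.1 CPM in controls against 75.4 ± 14.9 CPM (SD, n = 6; log2 estimate 1.45, edgeR adjusted p = 0.000579). Cntnap5c averaged 13.3 ± 2.67 CPM against 1.93 ± 1.59 CPM (SD, n = 6; log2 estimate -2.79, edgeR adjusted p = 0.000727).

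Of 22 further neuronal adhesion genes of the immunoglobulin superfamily, 20 were tested, 2 were higher and 6 lower, with a median log2 fold change of -0.56. Alcam (chromosome 16, 52248996 to 52454074), which encodes an adhesion molecule of sensory and motor axons, averaged 1518 ± 181 CPM in controls against 429 ± 109 CPM (SD, n = 6). EdgeR's log2 estimate was -1.82 ± 0.14 (SE; adjusted p = 1.26e-06). Nectin3, which encodes a nectin, fell from 49.0 to 79.4 CPM over the controls to 6.98 to 24.6 CPM (edgeR, adjusted p = 6.54e-05). Sdk1, a sidekick gene, and Lsamp, of the IgLON family, changed by -1.35 and -0.96 in log2 terms (edgeR, adjusted p = 4.43e-05 and 6.41e-05). The 2 higher genes, Cadm2 and Cadm3, fall outside the rule for naming genes. They changed by 3.09 and 0.75 in log2 terms (edgeR, adjusted p = 0.000779 and 0.0322). Cadm2 was low, at a mean of 1.17 CPM in controls and 10.0 CPM in the libraries labelled ISL1CKO, and the groups overlapped for Cadm3.

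**Figure D4:**
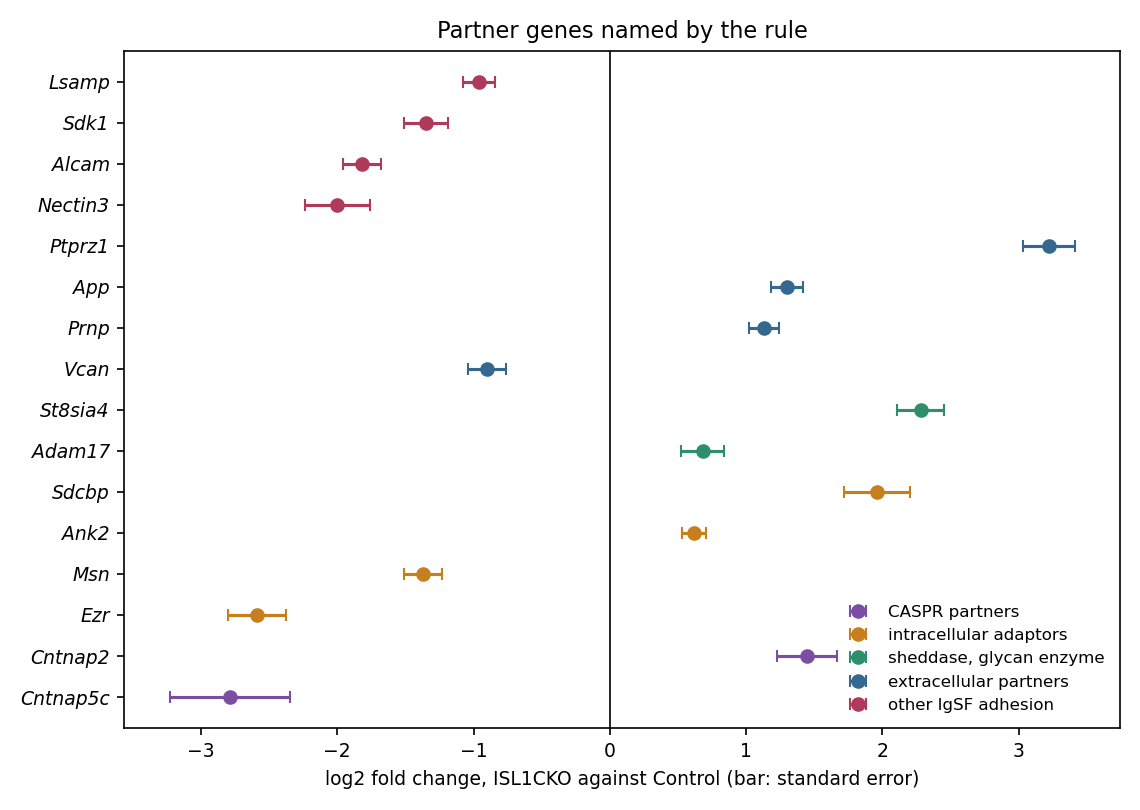
Log2 fold change and standard error of the 16 listed genes named by the rule, coloured by list, in libraries labelled ISL1CKO against controls (n = 6 each). Alcam, Nectin3, Sdk1 and Lsamp were listed as further adhesion genes and not as partners. Ptprz1 at 3.22 and St8sia4 at 2.28 lie farthest to the right, and Cntnap5c at -2.79 and Ezr at -2.59 farthest to the left.

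Adhesion genes of these families are also expressed by glia and other cells, so markers of other cell types were read in the same libraries. The summed level of 9 Schwann and satellite glia markers was 38.4 to 259 CPM in the libraries labelled ISL1CKO and 33.0 to 186 CPM in controls, with 0 of 7 tested markers called in edgeR's test. Sox10 reached at most 13.6 CPM and 7.13 CPM. The summed level of 9 macrophage markers ran from 1.24 to 744 CPM and from 1.85 to 358 CPM, with 0 of 9 called. The medians of this sum were 119.8 CPM in the libraries labelled ISL1CKO and 7.76 CPM in controls. EdgeR's log2 estimates for the macrophage markers ran from 0.39 to 2.21, so a higher macrophage content was not excluded. Of 10 mesenchyme markers 4 were tested, of which Tbx18 and Col3a1 were higher, while the summed level was 72.0 to 122 and 38.6 to 84.5 CPM. Tbx18 had a median of 38.4 CPM against 0.701 CPM in controls. Pou3f4 and Col1a2 did not pass, at -0.95 and 1.83 in log2 terms (edgeR adjusted p = 0.143 and 0.0602). Among markers not tested, Prrx1 had a median of 4.73 CPM against 0.306 CPM in controls, and Twist1 of 0 CPM against 0.954 CPM. The list thus did not move in 1 direction. Of 7 hair cell markers found, summing to 293 to 580.0 CPM and 253 to 538 CPM, 4 were tested and Ccer2 was lower, at 1.35 to 8.30 CPM against 10.2 to 48.3 CPM in controls (edgeR log2 estimate -3.26, adjusted p = 0.000154). Most of that sum was Myo6, at 241 CPM or more in every library, while Pou4f3 and Gfi1 reached at most 2.67 and 0.332 CPM. The 5 otic epithelium markers summed to 3.28 to 24.1 CPM and 3.17 to 7.03 CPM, with 0 of 2 tested called, and 3 endothelium markers to 0.219 to 29.6 CPM and 0.220 to 1.11 CPM, with none tested. With the glia marker level as a covariate, Ncam1, Ncam2 and Nrcam changed by 0.45, 1.57 and -0.62 in log2 terms (edgeR, adjusted p = 0.00785, 0.00112 and 0.000870). With the macrophage marker level the values were 0.47, 1.69 and -0.61 (edgeR, adjusted p = 0.00558, 0.000405 and 0.000789). The part of the mitochondrial share, the neuron marker sum, the mesenchyme markers and Ccer2 in these results was not tested.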

How the data were processed

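The authors deposited 1 table of whole-number counts per Ensembl gene, not normalized, for 12 libraries of 100 sorted cells. Per the submitters' processing notes, cutadapt 1.18, Bowtie 1.2.2, STAR 2.7.0c and featureCounts were used with GRCm38.p6; their roles, the annotation and the use of strand are not given in the sources used here, so counts of genes that overlap another are uncertain. Symbols were found for 25620 of 25674 identifiers, and coordinates and exon lengths are those of GENCODE M21 on GRCm38.

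Genes were kept by filterByExpr (minimum count 10), libraries scaled by TMM, and all 14813 genes tested with the robust quasi-likelihood F-test of edgeR 4.0.16 under R 4.3.3, with no covariate and Benjamini-Hochberg adjustment at 0.05. The standard error is the absolute log2 fold change divided by the square root of F, and 95% intervals use t with 10 degrees of freedom. Ratios used exact permutation tests. Alternatives were other scalings and filters, DESeq2 1.42.0, limma-voom (limma 3.58.1), the replicate number as a block, 2 marker covariates, and libraries left out. The fits were also run on counts simulated with dispersions estimated from these libraries, and the outcome is not reported here. Such a run checks the fitting steps and says nothing about whether a call in these data is right. Among 30 pairs of libraries within groups, none agreed within sampling noise (chi-square per degree of freedom at least 20.5).

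All 10 genes are named, and of each partner list the 4 genes with the smallest p among those called without overlap between groups. The genes and lists were chosen with earlier results of these data known. PCR reads without molecular identifiers are not independent molecules. The genes Thy1, Atoh1, Cdh5 and the erythroid markers were not analysed here.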

Additional observations from a re-analysis of the deposited data

Results flagged for a closer look

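Dixon's test, applied to the 6 values of each gene in each group, singled out 1 library in 20 such tests, and chance alone would single out about 1. Cntn1 was at 205 CPM in ISL1CKO 4, against 243 to 259.9 CPM in the other libraries labelled ISL1CKO. Without that library the log2 fold change of Cntn1 was -0.074 in place of -0.12 (edgeR adjusted p = 0.753).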

How the results depend on the processing

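The calls of Ncam1, Ncam2 and Nrcam and the absence of a call for the other 7 genes held in all 22 alternatives that gave a value; Cntn4 gave none with a mean of at least 5 CPM. Log2 fold changes ran from 0.43 to 0.51 for Ncam1, 1.45 to 1.70 for Ncam2 and -0.64 to -0.51 for Nrcam. All called genes numbered 1178 to 1517 with 1 library left out, 2100 by DESeq2's Wald test, and 767 in place of 1511 without ISL1CKO 2, 3 and 5, which leaves 3 libraries against 6. Of 374 values of the 16 listed genes named by the rule and Ank3, 373 kept their call, all but 1 of Adam17.

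The log2 ratio of Ncam2 over Ncam1 again differed by 1.10 in the replicate block (exact permutation test, adjusted p = 0.156), and by 0.99 without ISL1CKO 2, 3 and 5 (exact permutation test, adjusted p = 0.179); 64 sign flips and 84 splits allow no unadjusted p under 0.0312 and 0.0238, which adjust to 0.156 and 0.119 where 1 of the 5 pairs is that small. With 1 library left out it ran from 0.91 to 1.27, that of Nfasc over Nrcam from 0.32 to 0.47, and that of Cntn5 over Cntn4 from -2.64 to -1.53; the cause of these changes was not tested. The deviations of same-numbered libraries from their group means correlated at r from -0.0566 to 0.155, with r over 0.1 in 1 of 6 pairs. For ISL1CKO 1 and 5 the same-numbered control had the highest r of all controls, and for the others another control did. Whether the numbers pair the libraries was not tested further. The replicate block changed no call of the 10 genes (1450 genes called in all). Low counts limit Cntn4.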

Other observations

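ISL1CKO 1 lay nearest to the controls of the 6 libraries labelled ISL1CKO for several genes, a pattern noticed after the values were seen and not tested. It had the lowest Ncam2, at 85.1 CPM, and the highest Nrcam, at 292 CPM. L1cam and Chl1 were also highest there, at 202 and 67.2 CPM. The same library was highest for Gata3, a transcription factor of spiral ganglion neurons, at 528 CPM, for the neurofilament genes Nefm and Nefl, at 1611 and 888 CPM, and for Alcam, at 624 CPM. It did not stand nearest to the controls for Ncam1, at 2116 CPM, St8sia4, at 84.1 CPM, Ptprz1, at 163 CPM, or Ezr, at 42.8 CPM.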
